A study of Mus musculus with 15 samples.

Results

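The mRNA levels of 49 genes for splicing regulators were examined in CT26 cells, a mouse colon tumor line, after depletion or inhibition of PRMT1. The 49 genes were taken from a list by symbol, each was listed once among the 34432 genes of both deposited tables, and all 49 passed the filter on low values and were tested in both experiments. They comprised 20 hnRNP genes, 12 SR and SR-like genes, 3 SR-related speckle genes, 3 CLK kinase genes, 6 RGG and RNA granule genes, and 5 other RNA-binding regulators. In the knockdown experiment, 3 shControl libraries (genotype labelled Ctrl knockdown) were compared with 3 shPrmt1 libraries (Prmt1 knockdown) of cells that stably carried a doxycycline (DOX)-inducible shPrmt1 construct and were given DOX for 3 days. In the inhibitor experiment, 3 libraries each came from wild-type CT26 cells given vehicle, MS023 or GSK3368715, both inhibitors at 6 µM for 48 hours. Whether the shControl cells also received DOX is not given in the sources used here, and if they did not, the hairpin and DOX cannot be told apart. The series' design calls the 3 libraries of a group biological replicates, nothing further says that they came from separate cultures, and p-values measure only the spread between them.

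Pre-mRNA splicing is steered by RNA-binding proteins that sit on exons and introns. SR proteins carry a domain rich in arginine and serine and mostly favour inclusion of exons, their RS domains are phosphorylated by kinases such as the CLK family, and hnRNP proteins package nascent transcripts and often repress exons. Many hnRNP and FET-family proteins carry RGG boxes, stretches of arginine and glycine that are classical sites for asymmetric dimethylation by PRMT1. The libraries read only the mRNA of these genes, not the protein, its methylation or its splicing activity.

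As a check of the labels, normalized counts of Prmt1 were 5601, 5717 and 5620.1 in shControl and 669, 761 and 683 in shPrmt1, or 12.5% of the control mean. Under MS023 and GSK3368715, which act on the enzyme, Prmt1 mRNA stood at 94.97% and 99.2% of the vehicle mean. Reads on genes numbered 17284091 to 29233738 per library in the knockdown experiment and 40119305 to 93697833 in the inhibitor experiment, and the 49 genes took 1.74% to 2.23% of them. The line expressed all 5 mesenchymal markers examined and few epithelial ones: 2 to 4 of 9 colon epithelium markers exceeded 10 counts in the group means, Epcam, Cdh1 and Cdx1 among those at or near 0, and 1 or 2 of 8 immune markers did. The summed colon epithelium markers ran from 724 to 810 counts in shControl, 541 to 661 in shPrmt1, 1245 to 1415 in vehicle, 1760 to 1851 in MS023 and 1408 to 1609 in GSK3368715, with most of the sum from Krt18 and Krt20. The summed mesenchymal markers ran from 113028 to 118063 counts in shControl, 103587 to 122726 in shPrmt1, 406228 to 431053 in vehicle, 358363 to 404666 in MS023 and 386929 to 429453 in GSK3368715. Within that list Col1a1 averaged 2116 counts in shControl and 4207 in shPrmt1, and 18543 in vehicle, 13071 in MS023 and 17227 in GSK3368715. The part of these shifts in the results was not tested. Since these are bulk libraries, fewer cells with a transcript and less of it per cell cannot be told apart.

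Across the 49 genes, changes were few and small. A gene was called when its adjusted p in limma, over all genes tested, was under 0.05. In the knockdown 3 of the 49 genes fell and 0 rose, against 14.7% of all 11485 genes tested called (7.5% higher and 7.17% lower). Under MS023 1 rose and 4 fell, against 27.9% of 13014 genes called (13.7% higher, 14.1% lower). Under GSK3368715 1 rose and 2 fell, against 9.64% called (5.16% higher, 4.47% lower). The shares of the 49 genes called, 6.12%, 10.2% and 6.12%, lay below the share of all genes in each comparison. At an unadjusted p under 0.05 there were 7, 11 and 5 of the 49. Over all genes tested there were 3580 of 11485, 5237 of 13014 and 3393 of 13014.

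The low number of calls went with narrow intervals. The median absolute log2 fold change of the 49 genes was 0.09 in the knockdown, 0.08 under MS023 and 0.07 under GSK3368715, beside 0.17, 0.18 and 0.13 over all genes tested. The median standard error was 0.08 in the knockdown and 0.07 in the inhibitor experiment, beside 0.10 and 0.09 over all genes. The 95% interval lay wholly within a 1.5-fold change in either direction for 46, 46 and 48 of the 49 genes, beside 68.4%, 68.1% and 73.7% of all genes. The medians were -0.01, -0.04 and -0.03. In the knockdown, the groups did not overlap for 12 of the 49 genes (5 higher, 7 lower), beside 38% of all genes. Under MS023 this held for 15 (6 higher, 9 lower), beside 44.5%, and under GSK3368715 for 6 (2 higher, 4 lower), beside 27.7%.

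**Figure D1:**
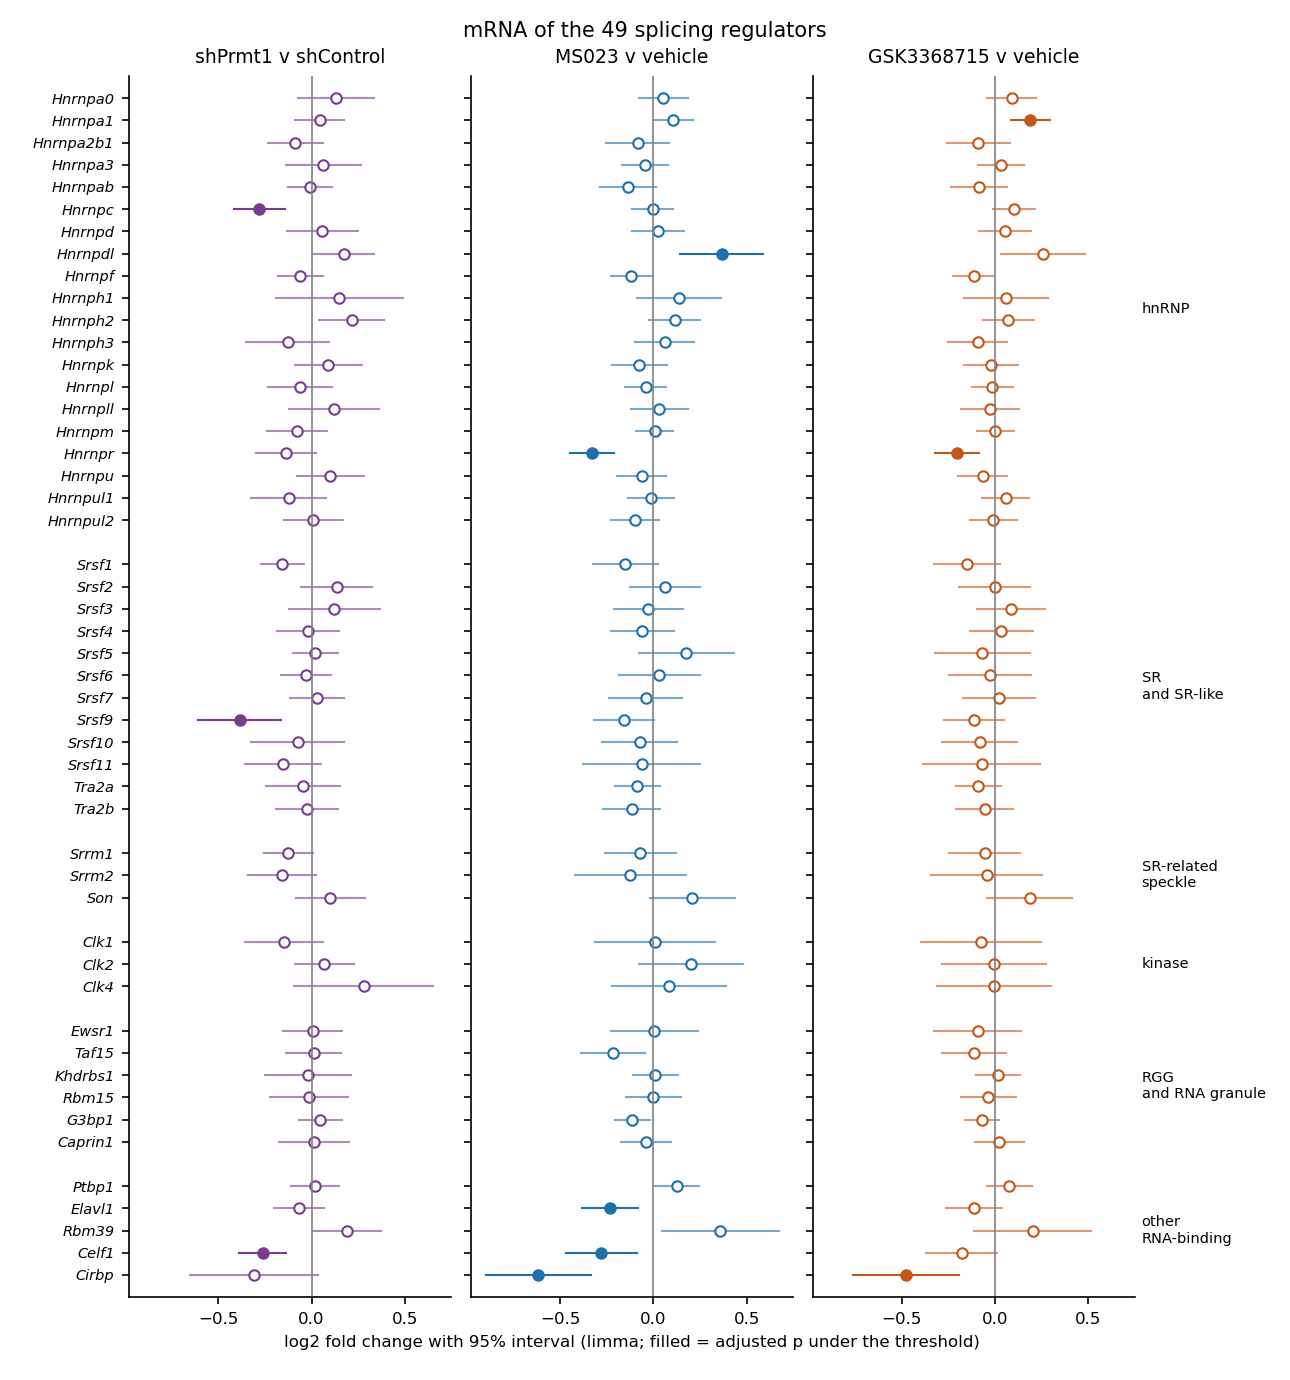
Log2 fold change (x axis) of each of the 49 genes (rows, by group) in the knockdown, under MS023 and under GSK3368715, with 95% intervals from limma. Filled points are the 3, 5 and 3 genes called, and most open points lie within 0.2 of 0.

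The members called in more than 1 comparison were Cirbp, Hnrnpr and Celf1. Cirbp and Hnrnpr were called with both inhibitors, which share the vehicle libraries, so these calls are not independent. Neither was called in the knockdown, whereas Celf1 was called there and under MS023. The promoter sequences of these genes are shown because each was called more than once. Each runs 5′ to 3′ from 250 bases before to 50 bases after an annotated start, credited to RefSeq on GRCm38.p6, with capitals marking GC boxes (GGGCGG) and CCAAT boxes (CCAAT) on either strand. Cirbp and Hnrnpr have a further annotated promoter each that is not printed.
Cirbp promoter, chr10:80167589-80167888, + strand: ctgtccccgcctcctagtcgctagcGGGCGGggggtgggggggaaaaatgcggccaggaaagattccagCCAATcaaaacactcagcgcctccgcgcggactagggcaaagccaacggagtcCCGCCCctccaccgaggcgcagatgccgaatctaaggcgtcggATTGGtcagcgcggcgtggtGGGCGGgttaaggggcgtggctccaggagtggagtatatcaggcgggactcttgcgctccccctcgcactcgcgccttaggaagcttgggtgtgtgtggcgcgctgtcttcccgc
Hnrnpr promoter, chr4:136310692-136310991, + strand: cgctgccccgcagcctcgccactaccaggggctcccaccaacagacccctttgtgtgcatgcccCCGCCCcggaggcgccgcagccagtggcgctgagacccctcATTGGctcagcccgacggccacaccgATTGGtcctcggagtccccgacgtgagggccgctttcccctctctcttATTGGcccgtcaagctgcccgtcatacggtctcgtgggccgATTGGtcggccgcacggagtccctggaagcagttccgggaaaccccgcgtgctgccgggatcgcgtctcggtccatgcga
Celf1 promoter, chr2:90940147-90940446, + strand: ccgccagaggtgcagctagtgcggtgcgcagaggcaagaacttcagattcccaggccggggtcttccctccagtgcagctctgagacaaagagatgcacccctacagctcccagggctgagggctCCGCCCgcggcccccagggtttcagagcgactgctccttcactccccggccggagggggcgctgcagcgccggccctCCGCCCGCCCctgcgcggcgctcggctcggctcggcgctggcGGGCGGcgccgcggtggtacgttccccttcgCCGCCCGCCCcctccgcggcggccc

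All 3 windows held GC boxes, and those of Cirbp and Hnrnpr also held CCAAT boxes. RefSeq promoters matched 45 of the 49 genes (60 promoters), without an entry for Clk1, Khdrbs1, Hnrnpll and Hnrnpul2. A GC box stood in 76.67% of the 60 promoters and in 35.66% of all 32851 promoters of the same length, and a CCAAT box in 53.33% and 37.41%. The ETS core CCGGAAG stood in 16.67% beside 8.86%, the E-box CACGTG in 11.67% beside 7.15%, the part of the NRF1 site GCATGCGC in 8.33% beside 2.71%, the part of the YY1 site AAGATGGC in 3.33% beside 2.75%, and the TATA box TATAAA in 8.33% beside 13.62%. The searches covered both strands, no CCAAT box overlapped a GC box in the windows shown, and some GC boxes of Celf1 overlapped each other. The median promoter of the 49 genes had 30.5 CG dinucleotides and 65.67% G or C, beside 7 and 52.67% over all promoters. These matches describe the windows and are not measured binding sites.

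Cirbp, the cold-inducible RNA-binding protein with an RGG-rich tail, had the largest fold change of the 49 genes (mm10 chr10:80165985-80172786, + strand, 7 exonic blocks). Its normalized counts were 974, 698 and 907 in the vehicle libraries, 540.5, 537 and 589 with MS023, and 636, 670.3 and 532 with GSK3368715. Every library of either inhibitor lay below every vehicle library, by a wide margin except for vehicle 2. Cirbp fell by 0.62 on the log2 scale under MS023 (SE 0.13, adjusted p = 0.00555) and by 0.48 under GSK3368715 (SE 0.13, adjusted p = 0.0407), a change of -34.8% and -28.3%. The MS023 call held under 20 of 20 alternative settings with adjusted p from 5.18e-05 to 0.0258, and the GSK3368715 call under 6 of 20, with adjusted p from 0.00612 to 0.131. In the knockdown Cirbp had 180.5, 153 and 150.4 counts in shControl and 147, 136 and 109 in shPrmt1, with no overlap but a log2 fold change of -0.31 (SE 0.15, adjusted p = 0.201).

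Hnrnpr, an hnRNP protein with an RGG region (mm10 chr4:136310942-136359447, + strand), was the other gene called with both inhibitors. It had 12133, 13446 and 12871 counts in vehicle, 10338, 10468 and 9809 with MS023, and 10930.3, 10898 and 11473 with GSK3368715. The 3 groups did not overlap, with GSK3368715 between the others. Hnrnpr fell by 0.33 under MS023 (SE 0.05, adjusted p = 0.00149) and by 0.21 under GSK3368715 (SE 0.05, adjusted p = 0.0362). The MS023 call held under 20 of 20 alternatives, with adjusted p of 0.0097 or less, and the GSK3368715 call under 8 of 20, with adjusted p up to 0.105. In the knockdown it had 4996, 4919 and 4736 counts in shControl and 4115, 4809.6 and 4427 in shPrmt1. Here the groups overlapped through shPrmt1 2, and the log2 fold change was -0.14 (SE 0.07, adjusted p = 0.22).

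Celf1, which binds GU-rich elements and acts in splicing and mRNA decay (mm10 chr2:90940382-91019497, + strand), was the only member called in the knockdown and also with an inhibitor. Its counts were 7766, 7647 and 8064 in shControl and 6357, 6744 and 6478 in shPrmt1, well apart. It fell by 0.26 in the knockdown (SE 0.05, adjusted p = 0.0161). In the inhibitor experiment it had 14271, 18482.5 and 16728 counts in vehicle, 13510.2, 13681 and 13334 with MS023, and 15058, 13343 and 15118 with GSK3368715. The MS023 libraries lay close together and below the widely spread vehicle libraries, whereas the GSK3368715 libraries overlapped vehicle 1. Celf1 fell by 0.28 under MS023 (SE 0.09, adjusted p = 0.0331), and its log2 fold change under GSK3368715 was -0.18 (SE 0.09, adjusted p = 0.217). The knockdown call held under 11 of 16 alternatives (adjusted p 0.000488 to 0.0943) and the MS023 call under 13 of 20 (0.00315 to 0.0927).

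**Figure D2:**
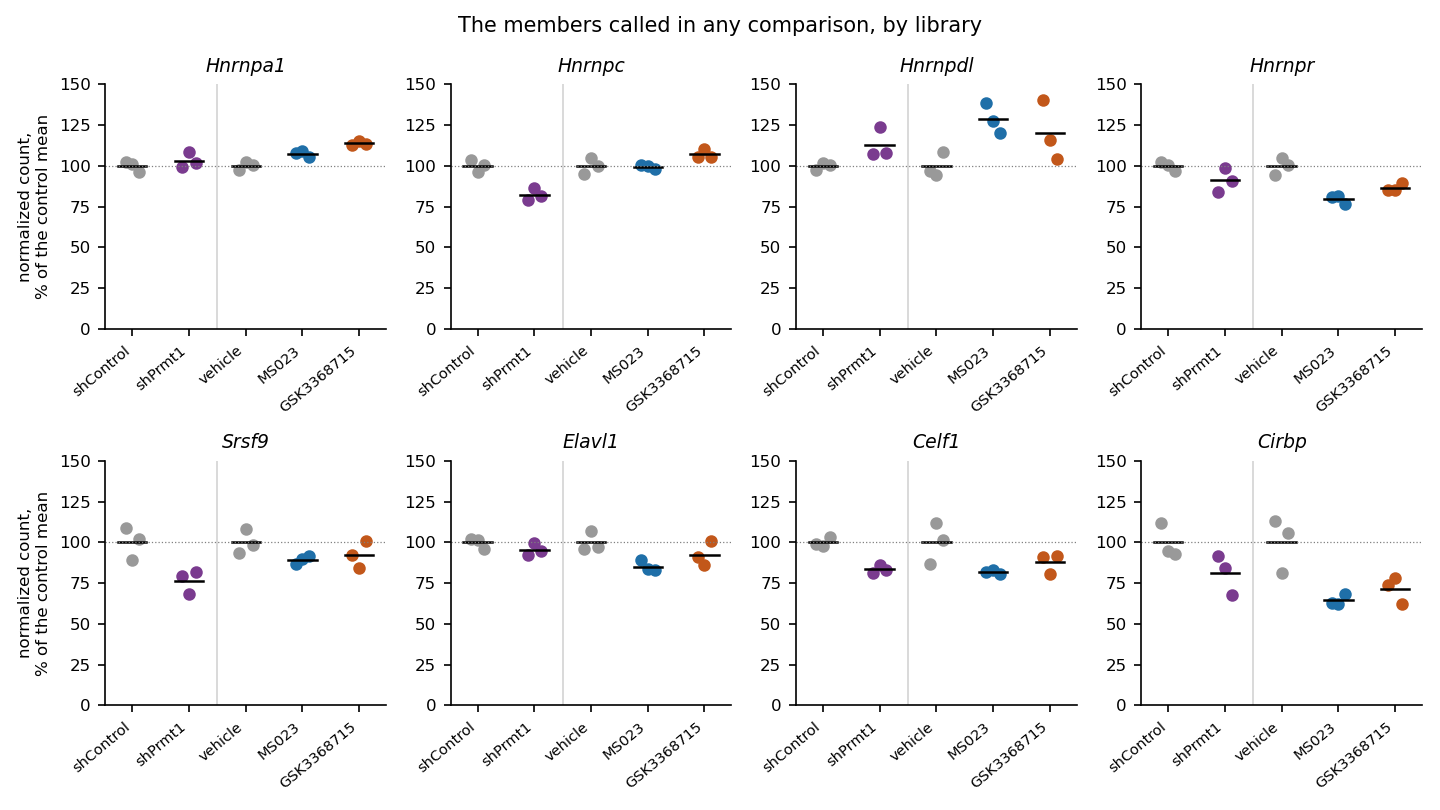
Normalized counts of the 8 members called in any comparison, as a percentage of the mean of the control of the same experiment (y axis), with 1 point per library and a bar at the group mean. Cirbp, Hnrnpr and Celf1 lie below their controls in the MS023 libraries, while Hnrnpc is lower in the shPrmt1 libraries and overlaps vehicle in the MS023 libraries.

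The hnRNP genes gave 1 call of 20 in the knockdown, 2 under MS023 and 2 under GSK3368715. Hnrnpc, which binds uridine tracts of nascent transcripts (mm10 chr14:52073377-52104028, - strand), had 8725, 8099.55 and 8486 counts in shControl and 6670.2, 7309 and 6861 in shPrmt1. The groups stood apart, and Hnrnpc fell by 0.28 (SE 0.06, adjusted p = 0.0177). With the inhibitors its log2 fold changes were -0.00 for MS023 (adjusted p = 0.961) and 0.10 for GSK3368715 (adjusted p = 0.238), and whether these differed from the knockdown was not tested, since the experiments were normalized separately. Hnrnpdl, a relative of the AU-rich element binding protein Hnrnpd (mm10 chr5:100033577-100039664, - strand), had 12387, 12082 and 13824 counts in vehicle, 17719.6, 16321 and 15346 with MS023, and 17936, 14773 and 13319 with GSK3368715. It rose by 0.37 under MS023 (SE 0.10, adjusted p = 0.021), the largest increase of the 49 genes. Its GSK3368715 libraries were spread widely and overlapped vehicle 3, with a log2 fold change of 0.26 (SE 0.10, adjusted p = 0.136), and in the knockdown it was 0.17 (SE 0.07, adjusted p = 0.132). The MS023 call held under 16 of 20 alternatives and was lost without vehicle 2, MS023 1 or MS023 2 and without the variance trend, with adjusted p up to 0.0802.

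Hnrnpa1, an exon repressor whose RGG box is a known PRMT1 substrate (mm10 chr15:103240432-103246692, + strand), had 63368, 66649.9 and 65397 counts in vehicle, 70346, 71239 and 68685 with MS023, and 73326, 75181 and 74057 with GSK3368715. The 3 groups did not overlap and lay within a narrow range. Hnrnpa1 rose by 0.19 under GSK3368715 (SE 0.05, adjusted p = 0.0326), while under MS023 the log2 fold change was 0.11 (SE 0.05, adjusted p = 0.119). The call held under 9 of 20 alternatives, with adjusted p from 0.000254 to 0.104. In the knockdown the libraries overlapped, with a log2 fold change of 0.04 (SE 0.06, adjusted p = 0.632). Its 9 near-identical copies listed held 0.147% and 0.09% of its counts in the knockdown and the inhibitor tables.

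Of the other hnRNP genes, Hnrnph2 had the highest log2 fold change of the 20 in the knockdown, at 0.21 (adjusted p = 0.0929). Hnrnpf, which binds G-rich runs, did not overlap vehicle with either inhibitor, at -0.12 for both (adjusted p = 0.101 and 0.173). The value of Hnrnpa3 depends on how reads were shared. This gene (mm10 chr2:75659261-75669407, + strand) has 25 genes elsewhere with at least 95% identity over 500 or more aligned bases, 24 of them listed, and together they held 58.9% as many counts as Hnrnpa3 in the knockdown table and 73.1% in the inhibitor table. Nearly all belonged to the transcribed processed pseudogene Gm5641, identical to Hnrnpa3 over the aligned part, with 16706 and 49792 counts on average. Counted alone, Hnrnpa3 had log2 fold changes of 0.06 in the knockdown, -0.04 under MS023 and 0.03 under GSK3368715 (adjusted p = 0.665, 0.601 and 0.776).

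With the copies added, Hnrnpa3 had 121653, 131659 and 132455 counts in vehicle, 108772, 112511 and 108786 with MS023, and 117483, 121833 and 123578 with GSK3368715. Every MS023 library then lay below every vehicle library. The sum fell by 0.22 under MS023 (SE 0.06, adjusted p = 0.0124), with -0.09 under GSK3368715 (adjusted p = 0.351) and -0.07 in the knockdown (adjusted p = 0.443). The copies took 45.5%, 45.7% and 46.7% of the sum in vehicle and 36.3%, 38.1% and 41.9% with MS023. This sum was chosen after the data were seen, and it moves the MS023 count from 5 to 6 members.

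The 12 SR and SR-like genes gave 1 call in the knockdown and 0 with either inhibitor, where 0 stood at an unadjusted p under 0.05 and edgeR and DESeq2 also called 0. In the knockdown DESeq2 called Srsf1 as well, and without vehicle 1 limma called Srsf1 under MS023. Srsf9, an SR protein (mm10 chr5:115327177-115333080, + strand), had 2817, 2297 and 2633 counts in shControl and 2054, 1766 and 2107 in shPrmt1. The groups did not overlap, with shPrmt1 2 the lowest, and Srsf9 fell by 0.39 (SE 0.10, adjusted p = 0.034), the largest decrease of the 49 genes in the knockdown. Its log2 fold change under MS023 was -0.16 (adjusted p = 0.13), also without overlap, and that under GSK3368715 was -0.11 (adjusted p = 0.365). Srsf1, the archetypal SR protein, was at -0.16, -0.15 and -0.15 in the knockdown, under MS023 and under GSK3368715 (adjusted p = 0.071, 0.183 and 0.261). In each comparison 8 or 9 of the 12 genes had a negative log2 fold change, beside 25, 29 and 32 of the 49. Over all genes tested it was negative for 5808 of 11485, 6448 of 13014 and 6493 of 13014. The inhibitors share the vehicle libraries, so their counts are not independent. The 12 genes ranged from -0.39 to 0.13 in the knockdown, -0.16 to 0.18 under MS023 and -0.15 to 0.09 under GSK3368715.

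No call fell on the 3 speckle genes, the 3 kinases or the 6 RGG and granule genes in any comparison. At an unadjusted p under 0.05 they gave 0 in the knockdown, 2 under MS023 and 0 under GSK3368715. With edgeR they gave 0 calls in each, and with DESeq2 the same 2 under MS023 and 0 elsewhere. Those 2 were Taf15, a FET-family RGG protein, at -0.22 (SE 0.08, adjusted p = 0.0571), and G3bp1, the stress granule nucleator, at -0.11 (SE 0.04, adjusted p = 0.0678). In the knockdown the 6 RGG and granule genes lay between -0.02 and 0.05, all with intervals within a 1.5-fold change. The scaffold genes Srrm2 and Son were at -0.16 and 0.10 in the knockdown (adjusted p = 0.219 and 0.426). Clk4 gave the widest interval of the 49 genes there, at 0.28 (-0.09 to 0.65).

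Among the 5 other RNA-binding regulators, 1 fell in the knockdown, 3 under MS023 and 1 under GSK3368715, Cirbp and Celf1 included. Elavl1 (HuR), which stabilizes AU-rich mRNAs (mm10 chr8:4285382-4325413, - strand), had 7884, 8814 and 7998 counts in vehicle, 7325, 6869.9 and 6823 with MS023, and 7508, 7076 and 8280.4 with GSK3368715. The MS023 libraries lay below all vehicle libraries, and the GSK3368715 libraries overlapped them. Elavl1 fell by 0.23 under MS023 (SE 0.07, adjusted p = 0.0282), a call that held under 14 of 20 alternatives with adjusted p up to 0.0925. Its log2 fold change was -0.11 under GSK3368715 (adjusted p = 0.333) and -0.07 in the knockdown (adjusted p = 0.479). Elavl1 overlaps Ccl25 on the opposite strand over 204 bases, 1.97% of its exonic length. Whether the authors' counting used strand is not given in the sources used here. Other members overlapped genes too. Among them were Srsf4 with Gm12992 (43.0%), Hnrnpab with Phykpl (29.1%) and Hnrnpr with Gm27022 (3.22%), all on the opposite strand. Hnrnpm overlapped March2 on the same strand (14.7%). Rbm39, a U2AF-related splicing factor, was at 0.36 under MS023 (SE 0.14, adjusted p = 0.0835), 0.20 under GSK3368715 (adjusted p = 0.413) and 0.19 in the knockdown (adjusted p = 0.143). The MS023 libraries of Rbm39 lay above all vehicle libraries, and it was called there under 3 of 20 alternatives, DESeq2 among them. Ptbp1, the polypyrimidine tract binding repressor, was at 0.13 under MS023 (adjusted p = 0.106).

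The calls changed with the libraries left out. Each of Hnrnpc, Srsf9 and Celf1 was below the threshold with any of the 3 tools, limma, edgeR and DESeq2. Without shControl 1, shControl 3, shPrmt1 1 or shPrmt1 3, limma called 0 of the 49 genes, with 3, 3, 9 and 7 at an unadjusted p under 0.05, and without shControl 2 it called 2. The share of all genes called in these fits also fell, from 14.7% to 5.72%, 6.34%, 11.2%, 9.45% and, without shControl 2, 7.75%. Without shPrmt1 2 it called 9, all lower: Celf1, Hnrnpa2b1, Hnrnpc, Hnrnpm, Hnrnpr, Srrm1, Srsf1, Srsf10 and Srsf9, beside 21.7% of all genes. That library stood apart, with the 49 genes at 2.23% of its reads beside 2.02% and 2.05% in the other shPrmt1 libraries. It was the highest of its group for 37 of the 49 genes (75.5%), beside 41.9% of all genes tested. Under MS023, 3 members were called without vehicle 2, vehicle 3, MS023 1 or MS023 3, and 2 without MS023 2, in place of 5, with Cirbp and Hnrnpr among them each time. The share of all genes called was then 26.3%, 20.1%, 20.6%, 19.5% and 18.6%, in that order, in place of 27.9%.

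Likewise, GSK3368715 1 stood apart for SR genes and their kinases, though not for these alone. Taking together the SR, speckle and kinase genes, a grouping chosen after their values were seen, GSK3368715 1 was the highest of its group for 16 of 18 (88.9%), beside 30.0% of all genes, and the lowest for 0. Its median log2 difference from the other GSK3368715 libraries was 0.29 for these genes, 0.03 for the hnRNP genes and -0.01 for all genes. Clk1, for example, had 4328, 3714 and 2669 counts in GSK3368715 1 to 3, Srsf5 had 16042, 12037 and 11746, and Srsf11 had 8000.1, 6123 and 5415. The coefficient of variation of the 3 kinases had a median of 21.1% in this group, beside 2.34% in MS023 and 11.3% in vehicle. Without GSK3368715 1 the count for GSK3368715 went from 3 to 0, with 6 at an unadjusted p under 0.05. It also went to 0 without vehicle 3, MS023 1, MS023 2, MS023 3, GSK3368715 2 or GSK3368715 3, with 4, 5, 4, 4, 5 and 8 at an unadjusted p under 0.05. The share of all genes called fell too, from 9.64% to 5.84% without GSK3368715 1 and to 4.52%, 7.67%, 7.23%, 7.31%, 6.51% and 6.01% without the others in the order given.

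**Figure D3:**
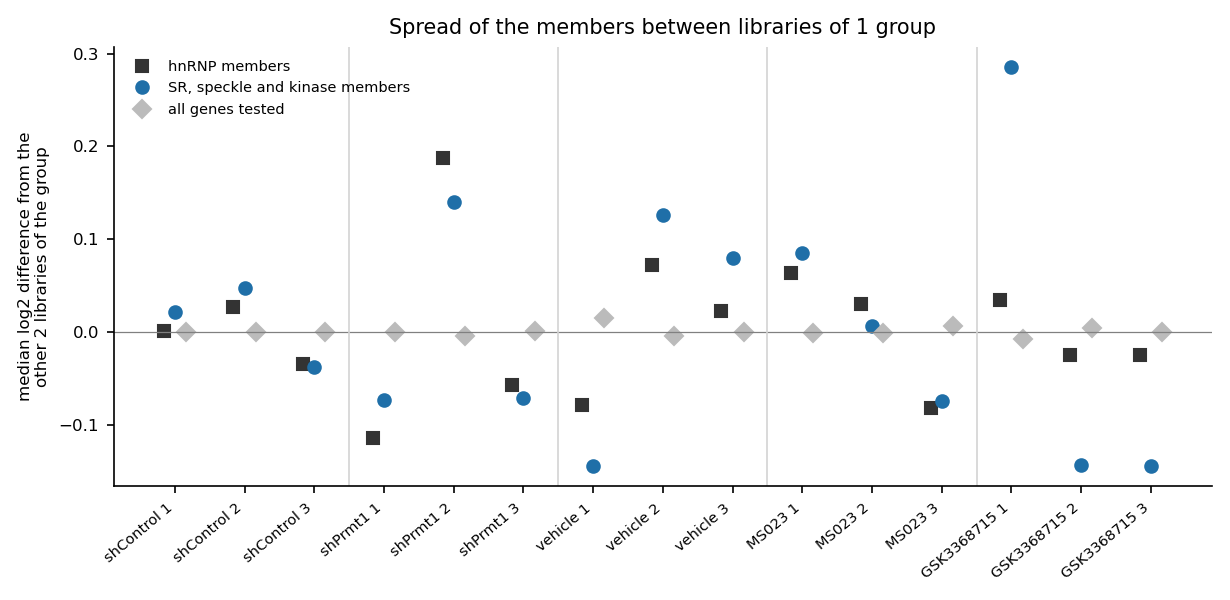
Median log2 difference of each library from the other libraries of its group (y axis), for the hnRNP genes, for the SR, speckle and kinase genes, and for all genes tested. GSK3368715 1 is high for SR, speckle and kinase genes at 0.29 while its hnRNP genes are at 0.03, and shPrmt1 2 is high for both sets at 0.14 and 0.19.

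MS023, a type I PRMT inhibitor, and GSK3368715, another, were compared directly at the same dose and time. Of the 49 genes, limma called 0 as different between them, beside 0.515% of all 13014 genes. On recovered reads edgeR and DESeq2 also called 0, beside 0.53% and 3.28%. At an unadjusted p under 0.05 in limma there was 1 of the 49, beside 1722 of the 13014 genes. The 1 was Hnrnpr, higher with GSK3368715 by 0.12 (SE 0.05, adjusted p = 0.362). The groups did not overlap for 7 of the 49 genes, beside 21.4% of all genes: Hnrnpa1, Hnrnpa3, Hnrnpc, Hnrnpr, G3bp1 and Taf15 higher and Hnrnph3 lower with GSK3368715. For Cirbp the difference was 0.14 with a 95% interval of -0.15 to 0.42, for Celf1 0.10 (-0.09 to 0.29), for Hnrnpdl -0.11 (-0.33 to 0.11), for Elavl1 0.12 (-0.03 to 0.27) and for Hnrnpa1 0.08 (-0.02 to 0.19). The widest bound was that of Srsf5, at -0.24 (-0.50 to 0.01). All 49 intervals lay within a 1.5-fold difference, and the calls made with 1 inhibitor only are not shown to differ between them. Both inhibitors were set against the same vehicle libraries.

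**Figure D4:**
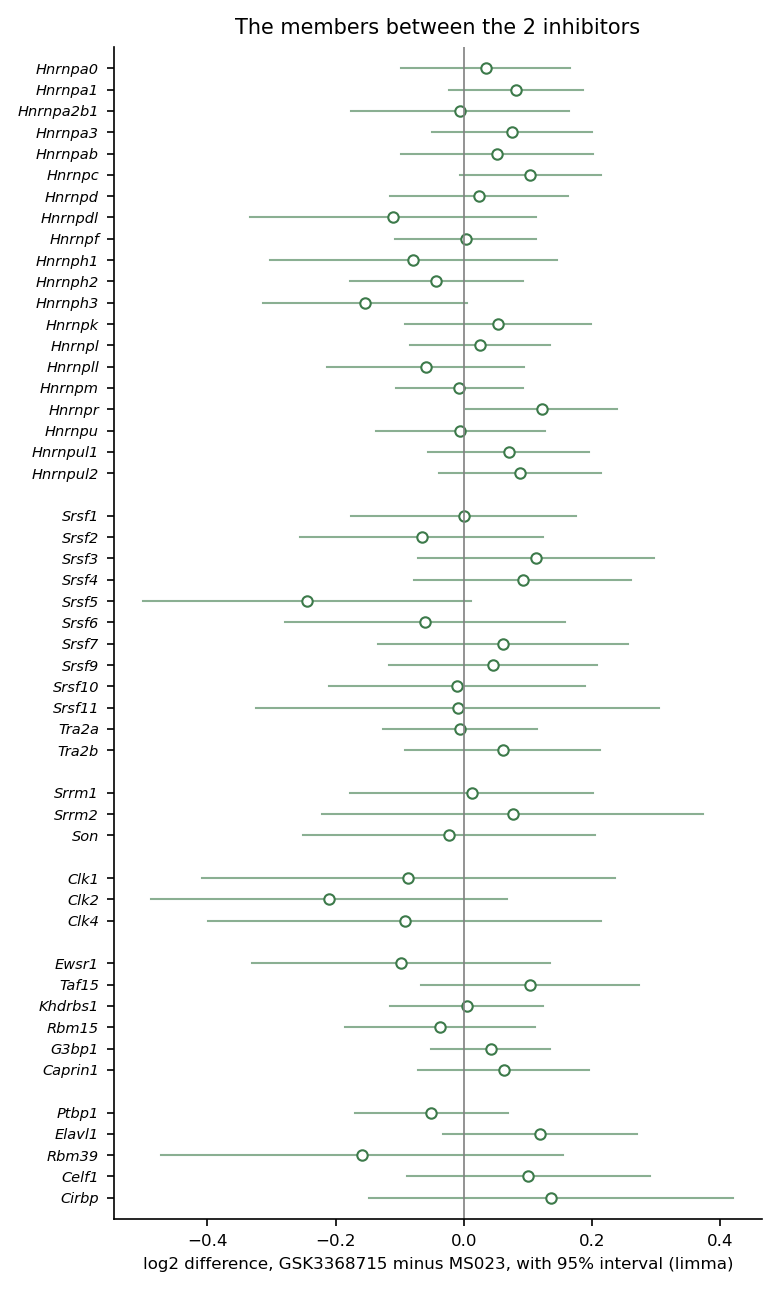
Log2 difference between GSK3368715 and MS023 (x axis) for each of the 49 genes (rows), with 95% intervals from limma. All intervals but that of Hnrnpr include 0, and the widest reach of any is the -0.50 of Srsf5.

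The knockdown and inhibitor experiments share no libraries, so their fold changes could be set side by side. Across the 49 genes Pearson's r of the knockdown and MS023 log2 fold changes was 0.64 (Spearman's rho 0.63), and 35 of 49 genes (71.4%) had the same sign. Over the 11471 genes tested in both, r was 0.53 (rho 0.46) and 65.7% had the same sign. With GSK3368715, r was 0.60 (rho 0.62) and 34 of 49 genes (69.4%) had the same sign, beside 0.48, 0.47 and 65.8% over all genes. Without Cirbp, r for the 48 genes was 0.59 with MS023 and 0.54 with GSK3368715. These are descriptions across genes, which are not independent replicates and share the libraries of each experiment.

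**Figure D5:**
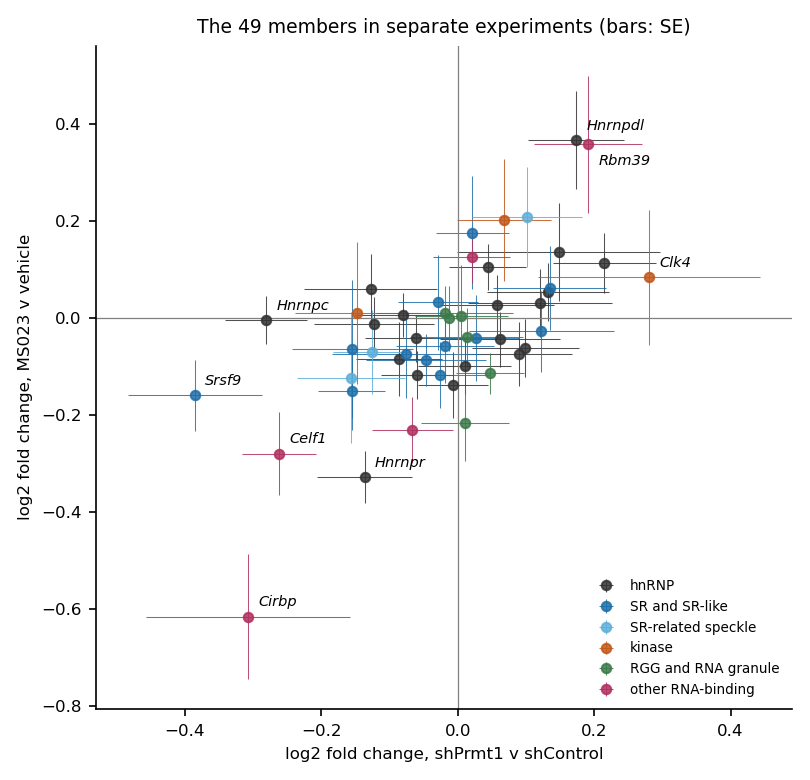
Log2 fold change in the knockdown (x axis) and under MS023 (y axis) for each of the 49 genes, coloured by group, with standard errors as bars. Cirbp, Celf1 and Srsf9 lie lower left and Hnrnpdl and Rbm39 upper right, and Pearson's r was 0.64.

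Other genes of the same machinery were read from further lists, beside the shares of all genes called given above. Of 68 core spliceosome genes, 4 were called in the knockdown, all lower, 17 under MS023 (4 higher, 13 lower) and 4 under GSK3368715, all lower. Of the 51 tested genes of 54 listed as other splicing regulators and RGG proteins, 6 were called in the knockdown (2 higher, 4 lower), 16 under MS023 (5 higher, 11 lower) and 7 under GSK3368715 (3 higher, 4 lower). The shares called were 5.88%, 25% and 5.88% for the first list and 11.8%, 31.4% and 13.7% for the second. Their medians were -0.08, -0.08 and -0.02 for the first list and -0.04, -0.09 and -0.05 for the second.

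Rbmx, the X-linked hnRNP G gene outside the 49, had 1425, 1413 and 1570.1 counts in shControl and 998, 1063 and 1063 in shPrmt1. In the inhibitor experiment it had 3483, 3567 and 3734 counts in vehicle, 2367, 2230.2 and 2187 with MS023, and 2931, 2403 and 2449 with GSK3368715. No treated library reached its controls, and Rbmx fell by 0.50, 0.67 and 0.48 in the knockdown, under MS023 and under GSK3368715 (adjusted p = 0.00361, 0.000233 and 0.00523), calls that held under all 16, 20 and 20 alternatives. Sf3b5, a subunit of the branch-site complex SF3b, fell by 0.64, 0.54 and 0.52 (adjusted p = 0.0241, 0.0011 and 0.00514). Its knockdown call held under 12 of 16 alternatives and was lost without any single shControl library and without the variance trend. Sap18, of the ASAP complex on exon junctions, rose by 0.67 under MS023 and 0.43 under GSK3368715 (adjusted p = 0.000132 and 0.00514), and the paraspeckle gene Pspc1 by 0.49 and 0.36 (adjusted p = 0.00253 and 0.0284). The GSK3368715 call of Pspc1 held under 14 of 20 alternatives, with adjusted p up to 0.101, and the other calls of these genes under 20 of 20. Clk3, the CLK kinase outside the 49, fell by 0.42 under MS023 (adjusted p = 0.00901). In the knockdown Luc7l, a U1-associated factor, rose by 0.37 (adjusted p = 0.0105) and the SR kinase Srpk2 by 0.32 (adjusted p = 0.0241). These calls held under 15 and 13 of 16 alternatives. Near-identical copies were not searched for genes outside the 49.

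For each list and comparison, up to 4 called genes with the largest absolute change were named, and those not yet given follow, all of them lower. The lists were ranked separately, so called genes outside this rule, such as Ddx17 (higher by 0.38, adjusted p = 0.00286) and Mbnl2 (lower, at -0.41, adjusted p = 0.00167) under MS023 and Pcbp1 (-0.30, adjusted p = 0.0101) in the knockdown, can exceed named genes of the core spliceosome list (these 3 were chosen after their values were seen). In the knockdown Rbm10, Lsm4, Cwc22 and U2af2 fell by 0.41, 0.36, 0.25 and 0.25 (adjusted p = 0.0237, 0.0369, 0.0312 and 0.0463). Under MS023 Snrnp27, Sf3b4 and Lsm8 fell by 0.44, 0.31 and 0.29 (adjusted p = 0.000422, 0.00271 and 0.00485). Under GSK3368715 Ptbp2, Sf3b4, Snrnp27 and Snrpd2 fell by 0.27, 0.24, 0.23 and 0.20 (adjusted p = 0.0402, 0.024, 0.0283 and 0.0253). Of these 11 changes, the 3 under MS023 held under 20 of 20 alternatives, while the others were lost under 4 to 13.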

How the data were processed

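RNA-sequencing of CT26 cells was read from gene tables of 6 knockdown and 9 inhibitor libraries (KAPA mRNA HyperPrep, NextSeq 500, paired-end). The authors quantified reads with Salmon 1.4.0 on mm10 and deposited a signal per gene, gene counts divided by DESeq2 size factors (version not given in the sources used here). The deposited comparison tables, with fold changes and p-values, were not used. All values were whole multiples of 1 read within 0.01, so reads were recovered for alternatives.

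Genes reaching 10 normalized counts in 3 or more libraries were tested on log2(normalized count + 1), a scale that understates changes of low genes, with limma 3.58.1 (R 4.3.3, eBayes with trend, two-sided, Benjamini-Hochberg over all genes tested, threshold 0.05). The knockdown fit held 6 libraries and the inhibitor fit 9, with contrasts for each inhibitor and their difference. Near-identical copies and overlapping genes were searched in GENCODE M21, and promoters came from RefSeq. The fits were tested on simulated data. Alternatives were pseudocounts of 0.5 and 5, no filter, a minimum of 50, upper quartile or total scaling, no trend, a replicate block, only the compared groups, edgeR 4.0.16, DESeq2 1.42.0 and each library left out. The sum of Hnrnpa3 and its copies was added after the data were seen. Members called are given by library, and from the other lists up to 4 called genes per comparison. Members and lists were chosen with earlier results of these data known.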

Additional observations from a re-analysis of the deposited data

How the results depend on the processing

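No fold change of a called member, or of the up to 4 called genes per other list and comparison, turned direction under any alternative run. Other called genes, Ddx17, Mbnl2 and Pcbp1 among them, were not checked in this way. In the knockdown 3 members were called, 4 with DESeq2 and 1 without the variance trend, beside 14.7%, 18.7% and 11.6% of all genes. With each library left out 0 to 9 were called, beside 5.72% to 21.7%. Under MS023 5 were called, 2 without the trend and 9 with DESeq2, beside 27.9%, 25% and 31% of all genes. With a library left out 2 to 6 were called, beside 18.6% to 28.8%. Under GSK3368715 3 were called, 1 without the trend, 0 without the filter and 0 with only the compared groups in the fit. The shares of all genes called were 9.64%, 7.71%, 4.65% and 4.68%. With a library left out 0 to 3 were called, beside 4.52% to 9.83%. Limma gave 4 members at an unadjusted p under 0.05 without the filter and 4 with only the compared groups. Between the inhibitors 0 were called under each alternative, beside 0.0155% to 3.28% of all genes, with 0 to 5 members at an unadjusted p under 0.05. Total scaling gave 3 higher and 4 lower under MS023, in place of 1 and 4, with 28.5% of all genes called. Upper quartile and total scaling each gave 1 higher and 1 lower under GSK3368715, in place of 1 and 2. They called 9.15% and 9.55% of all genes there. In a fit with the replicate block, 6 members were called in the knockdown (2 higher, 4 lower), beside 23.3% of all genes. It called 3 under MS023 and 0 under GSK3368715, beside 24.7% and 6.61%. Under GSK3368715 4 members stood at an unadjusted p under 0.05. Same-numbered libraries correlated by -0.10 to 0.12 in their deviations from the group means, and the main fits did not take the numbers as pairs. In the knockdown, however, each library correlated best with its own number, at 0.06, 0.12 and 0.08. There the block raised the share of all genes called from 14.7% to 23.3%, so the unpaired knockdown counts depend on that choice. Causes of these shifts were not tested. With 3 libraries a group, the 95% intervals of the members had a median half-width of 0.17 in the knockdown and 0.16 in the inhibitor experiment on the log2 scale.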
